A study of Mus musculus with 7 samples.

Results

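The windows described here are the most gene-dense stretches of the mouse autosomes, and the 5-methylcytosine (5mC) regions that lie in them. Autosomes were divided into fixed windows of 1 Mb, and a window was taken as gene-dense when the starts of 30 or more RefSeq protein-coding genes lay in it and none of them was an olfactory or vomeronasal receptor gene (a symbol starting with Olfr or Vmn). This gave 78 of 2434 windows (3.20%), after 36 of the 114 windows with enough gene starts had been left out for receptor genes. They held 3212 of 20665 autosomal protein-coding genes (15.5%) and 7343 of the 133337 deposited active regions (5.51%), or 5.61% of the 130882 on autosomes. A start here is the lower coordinate of a gene, whatever its strand, and a region belongs to the window that holds its midpoint.

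The DNA came from hippocampal neurons of C57BL/6J embryos taken at embryonic day 18.5 and grown in culture for 11 days, in medium that held the mitotic inhibitor AraC. One group of 3 libraries was treated with 55 mM KCl for 4 h, which depolarises neurons, and the other 3 were left untreated; no genetic change is named for either group, and the purpose given is to define targets of activity at the level of transcripts and of DNA methylation. Fragments carrying 5mC were pulled down with an antibody and sequenced (MeDIP-seq), so the values measure enriched DNA and hold no transcript that could check the cell type. The labels do not tell whether the replicates of a group are separate cultures, so a p-value here reflects the scatter among these 6 libraries and that scatter may be technical. The 6 libraries differed in how much was called in them: autosomal intervals numbered 91691, 60010 and 34213 in the KCl libraries and 85500, 85923 and 71626 in the untreated libraries, with KCl replicate 3 the lowest. Each interval carries a summit height, a whole number of at least 6 whose scaling between libraries is not stated, and read totals are unknown.

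In mammals most methylated cytosines stand in CpG dinucleotides. Promoters rich in CpG are as a rule unmethylated, while the bodies of transcribed genes and the CpG-poor promoters of genes silent in a tissue commonly carry methylation. Gene-dense stretches of the mouse genome are rich in GC and in short housekeeping genes, and they also hold tandem families such as keratins and protocadherins. The antibody pulls down fragments with several methylated CpGs better than fragments with few, so MeDIP-seq enrichment depends on the number of CpGs as well as on their methylation. The CpG content of whole windows was not measured here.

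The sequences printed here are promoters, taken as 250 bases before to 50 bases after a gene's start and credited to RefSeq (GRCm38.p6). A strand and a promoter were at hand for 2495 of the 3212 genes. The promoters of 4 genes that lie under the highest regions called in all 6 libraries are printed below, each 5′ to 3′ on the strand of its gene, with every CG in capitals. Sec1, a gene of the fucosyltransferase family, has its window at chr7:45694353-45694652 (minus strand), with 9 CpGs. Hormad1, which encodes a meiotic chromosome-axis protein, has its window at chr3:95559427-95559726 (plus strand), with 24 CpGs. Krt75, a hair-follicle keratin, has its window at chr15:101573855-101574154 (minus strand), with 8 CpGs. Henmt1, the enzyme that methylates the ends of germ-line piRNAs, has its window at chr3:108940307-108940606 (plus strand), with 31 CpGs.
Sec1: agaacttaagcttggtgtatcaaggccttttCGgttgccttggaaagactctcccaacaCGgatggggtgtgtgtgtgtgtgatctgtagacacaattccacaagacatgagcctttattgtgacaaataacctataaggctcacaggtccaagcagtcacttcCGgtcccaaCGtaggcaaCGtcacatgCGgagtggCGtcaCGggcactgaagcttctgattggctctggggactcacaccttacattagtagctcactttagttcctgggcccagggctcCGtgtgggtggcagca
Hormad1: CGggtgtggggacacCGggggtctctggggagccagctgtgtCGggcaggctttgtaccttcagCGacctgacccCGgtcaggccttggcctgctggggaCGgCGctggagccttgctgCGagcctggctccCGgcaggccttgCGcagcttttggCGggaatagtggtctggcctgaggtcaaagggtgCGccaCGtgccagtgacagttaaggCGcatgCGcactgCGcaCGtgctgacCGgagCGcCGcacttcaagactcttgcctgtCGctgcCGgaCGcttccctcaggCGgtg
Krt75: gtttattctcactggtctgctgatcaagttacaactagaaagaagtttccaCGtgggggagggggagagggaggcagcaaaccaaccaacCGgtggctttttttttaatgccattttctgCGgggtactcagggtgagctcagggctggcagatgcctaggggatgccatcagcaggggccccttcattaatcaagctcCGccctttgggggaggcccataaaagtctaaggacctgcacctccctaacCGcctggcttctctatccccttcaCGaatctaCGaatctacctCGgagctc
Henmt1: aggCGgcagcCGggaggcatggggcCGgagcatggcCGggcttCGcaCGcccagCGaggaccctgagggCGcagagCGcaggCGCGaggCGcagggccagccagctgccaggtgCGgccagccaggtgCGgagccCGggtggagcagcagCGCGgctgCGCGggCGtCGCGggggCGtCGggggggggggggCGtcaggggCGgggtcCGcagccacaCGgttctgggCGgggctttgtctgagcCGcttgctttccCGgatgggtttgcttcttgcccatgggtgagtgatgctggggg

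The promoters of 2 housekeeping genes of these windows that had no region at either gene end are printed beside them for comparison. Ap2s1 encodes the small subunit of the AP-2 clathrin adaptor, with its window at chr7:16738194-16738493 (plus strand) and 16 CpGs. Eef2 encodes translation elongation factor 2, with its window at chr10:81176381-81176680 (plus strand) and 34 CpGs.
Ap2s1: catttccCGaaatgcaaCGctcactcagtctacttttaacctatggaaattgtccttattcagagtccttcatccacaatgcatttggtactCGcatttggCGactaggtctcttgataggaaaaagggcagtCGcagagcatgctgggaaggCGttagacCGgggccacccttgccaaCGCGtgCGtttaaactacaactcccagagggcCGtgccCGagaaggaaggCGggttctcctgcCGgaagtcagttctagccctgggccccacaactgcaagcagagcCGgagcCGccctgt
Eef2: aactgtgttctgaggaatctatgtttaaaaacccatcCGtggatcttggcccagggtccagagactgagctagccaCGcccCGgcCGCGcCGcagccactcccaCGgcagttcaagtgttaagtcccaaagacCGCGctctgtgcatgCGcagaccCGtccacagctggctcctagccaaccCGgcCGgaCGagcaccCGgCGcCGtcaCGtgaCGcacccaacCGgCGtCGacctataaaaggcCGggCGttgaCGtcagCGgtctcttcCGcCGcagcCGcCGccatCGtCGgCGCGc

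The region over the Sec1 promoter (chr7:45693644-45694539) had heights of 173, 128 and 86 in the KCl libraries and 161, 199 and 121 in the untreated libraries. The Hormad1 region (chr3:95559349-95560090) covered the whole promoter window, with heights of 120, 84 and 65 in the KCl libraries and 102, 134 and 83 in the untreated libraries. The Krt75 region (chr15:101573576-101574055) had 79, 60 and 43 in the KCl libraries and 82, 81 and 58 in the untreated libraries. In these 3 regions the groups overlapped, and KCl replicate 3 was the lowest library. The Henmt1 region (chr3:108939811-108940641) had heights of 69, 52 and 54 in the KCl libraries and 64, 82 and 66 in the untreated libraries, and also covered the whole promoter window. The number of CpGs alone did not sort these promoters, since Eef2 and Henmt1 had similar numbers and only Henmt1 was overlapped by a called region.

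Called intervals were about 2 times as dense in gene-dense windows as in the rest of the autosomes, in every library. Gene-dense windows held 68.5, 51.6 and 32.1 intervals per Mb in the KCl libraries, and 65.3, 70.8 and 55.6 in the untreated libraries. The other autosomal windows held 36.7, 23.8 and 13.5 intervals per Mb in the KCl libraries, and 34.1, 34.1 and 28.6 in the untreated libraries. The ratio of gene-dense to other windows was 2.05, a log2 ratio of 1.04 ± 0.13 (SD, n = 6 libraries), and was above 1 in 6 of 6 libraries (exact sign-flip permutation p = 0.031, two-sided, the smallest possible with 6 libraries; 0.0339 after Benjamini-Hochberg adjustment over 13 such tests). The 6 libraries share 1 genome, so the test asks only whether the libraries gave the same direction.

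The increase ran across the whole range of gene density. Windows without a gene start held a mean of 22.9 regions, those with 1 to 4 starts 43.1, those with 5 to 9 starts 61.0, those with 10 to 19 starts 74.6 and those with 20 to 29 starts 78.4. Gene-dense windows with 30 to 39 starts held 83.6 and those with 40 to 66 starts 105.8. There was no upward step at the limit itself: the 5 gene-dense windows with exactly 30 starts held a mean of 85.8 regions and the 5 windows with 29 starts a mean of 104.6. Against windows with 10 to 29 starts alone, the log2 ratio of interval density was 0.54 (exact sign-flip permutation p = 0.031, two-sided, n = 6 libraries).

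**Figure D1:**
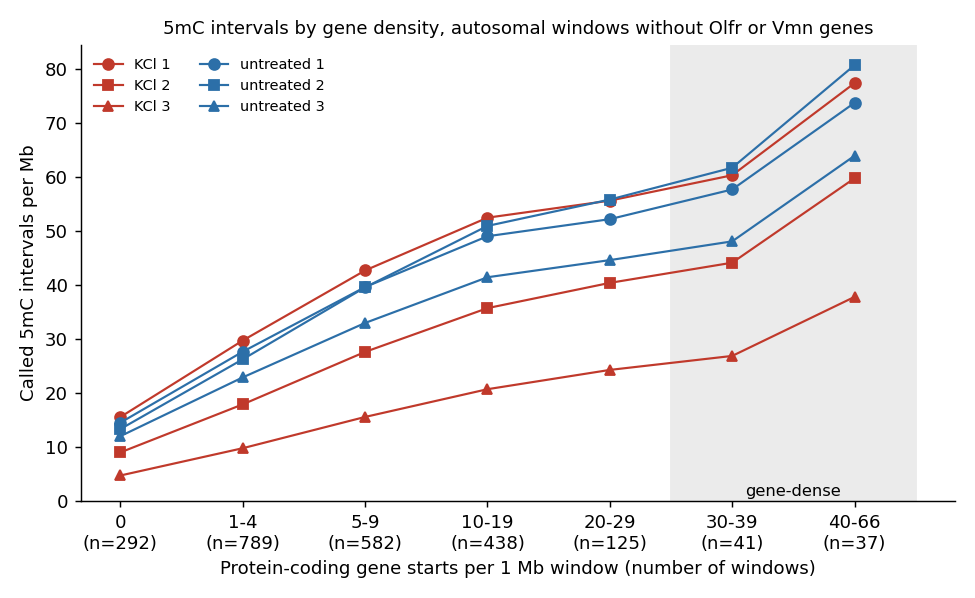
Called 5mC intervals per Mb (vertical axis) in autosomal windows without Olfr or Vmn genes, by the number of protein-coding gene starts per 1 Mb window (horizontal axis, with the number of windows), 1 line per library. In all 6 libraries the value was lowest in windows without a gene start and highest in gene-dense windows with 40 to 66 starts.

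Single windows varied widely. A gene-dense window held 14 to 165 regions, with a median of 91.5, against a median of 44 in the other windows. Of the other windows, 331 (14.0%) reached the gene-dense median, and 6 gene-dense windows lay below 44. Over the 78 gene-dense windows, the number of regions followed the number of gene starts with a Spearman correlation of 0.47, and the share of the window covered by gene bodies with 0.27. Both are descriptions over windows that share libraries and differ in base composition. The windows lay on 18 chromosomes, with 12 on chromosome 7, 11 on chromosome 11 and none on chromosome 12.

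The window with the most genes also had the most regions. It spans chr7:45000001-46000000, with 66 gene starts and 165 regions, and includes Slc17a7 (a vesicular glutamate transporter), Grin2d (an NMDA receptor subunit), Bax (an inducer of apoptosis) and the ribosomal protein genes Rpl13a and Rpl18. Of its 66 genes, 59 had a region at an end or in the body. By gene starts it was followed by chr11:69000001-70000000 (62 starts, 143 regions), with Trp53 and Polr2a, by chr17:35000001-36000000 (61 starts, 120 regions), with genes of the major histocompatibility complex, by chr2:25000001-26000000 (60 starts, 84 regions), with 9 lipocalin genes, and by chr7:30000001-31000000 (55 starts, 128 regions). The windows next in number of regions were chr15:76000001-77000000 (148 regions), with Plec, chr10:80000001-81000000 (145 regions) and chr10:127000001-128000000 (141 regions), with Lrp1.

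The gene-dense windows with the fewest regions held tandem families, most of them of very short genes. On chromosome 8 a window with 42 gene starts, 38 of them defensins (antimicrobial peptides), held 14 regions. On chromosome 3 a window with 20 Lce and 14 Sprr genes, which encode proteins of the cornified envelope of skin, held 16. A window of chromosome 4 with 17 interferon genes held 26, one of chromosome 3 with 12 S100 calcium-binding protein genes held 37, and one of chromosome 17 with 15 H2 genes held 37. The median gene length was 981, 1696.5 and 770 bp in the first 3 of these windows, against 8587 bp over all genes of gene-dense windows. How reads with more than one position in the genome were treated is not given in the sources used here. In families of near-identical copies a lack of calls cannot be told apart from a lack of uniquely placed reads.

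Regions of gene-dense windows were somewhat longer and were called in more libraries. Their median length was 388 bp, against 356 bp for those of other autosomal windows, and 126 of 7343 (1.72%) reached 1 kb, against 0.536%. They covered 3.09 Mb in all, and neighbouring midpoints within a window lay a median of 5.53 kb apart, against 8.36 kb in other windows. Of the regions in gene-dense windows, 1964 (26.7%) were called in all 6 libraries and 24.4% in 1 library, against 20.1% and 29.5% of those in other windows. These counts pool the libraries and carry no test.

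Heights differed little. The median interval height in gene-dense windows was 17, 16 and 15 in the KCl libraries and 16, 18 and 16 in the untreated libraries. In the other windows it was 16, 15 and 14 in the KCl libraries and 15, 16 and 15 in the untreated libraries. The difference of 1.17 ± 0.41 was positive in 6 of 6 libraries (SD, n = 6; exact sign-flip permutation p = 0.031, two-sided). Set against windows with 10 to 29 gene starts it was 0.667 and no longer passed (exact sign-flip permutation p = 0.25, n = 6 libraries). Intervals of height 50 or more made up 7.28%, 5.37% and 2.52% of those in gene-dense windows in the KCl libraries, and 5.61%, 7.55% and 4.42% in the untreated libraries. In other windows they made up 4.56%, 3.40% and 1.82% in the KCl libraries and 3.49%, 4.78% and 2.81% in the untreated libraries, lower than in gene-dense windows in every library.

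Most regions of gene-dense windows lay inside protein-coding genes and away from gene ends. Of the 7343, 4654 (63.4%) lay in a gene body more than 1 kb from any gene end, 1141 (15.5%) lay within 1 kb of a gene end and 1548 (21.1%) lay in neither. In the other autosomal windows these shares were 48.1%, 3.96% and 47.9%. The choice of windows fixes much of this, above all the share at gene ends: the zones within 1 kb of a gene end make up 13.7% of the gene-dense windows and 2.72% of the other windows. Per Mb of such zones, gene-dense windows held 107 regions and other windows 76.3, which is 1.13 times the mean density of gene-dense windows and 1.45 times that of other windows. Within libraries, 15.1 ± 0.27% of intervals in gene-dense windows lay within 1 kb of a gene end, against 4.09 ± 0.19% in other windows (SD, n = 6 libraries; higher in 6 of 6; exact sign-flip permutation p = 0.031). The zones alone would give this direction, so the test cannot show a preference for gene ends.

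Gene bodies covered 60.5% of the gene-dense windows and 39.8% of the other windows, so density was also counted per Mb of gene body. Over all libraries together, gene-dense windows held 118 regions per Mb of gene body and 57.8 per Mb outside gene bodies, against 66.9 and 42.9 in other windows. By library, gene bodies of gene-dense windows held 2.03 times as many intervals per Mb as gene bodies elsewhere, and the DNA outside gene bodies 1.40 times as many as such DNA elsewhere (each higher in 6 of 6 libraries, exact sign-flip permutation p = 0.031, two-sided). Gene bodies exceeded the DNA outside them 2.42-fold in gene-dense windows and 1.67-fold in other windows (each higher in 6 of 6 libraries, exact sign-flip permutation p = 0.031). The higher density was thus present both inside and outside gene bodies.

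**Figure D2:**
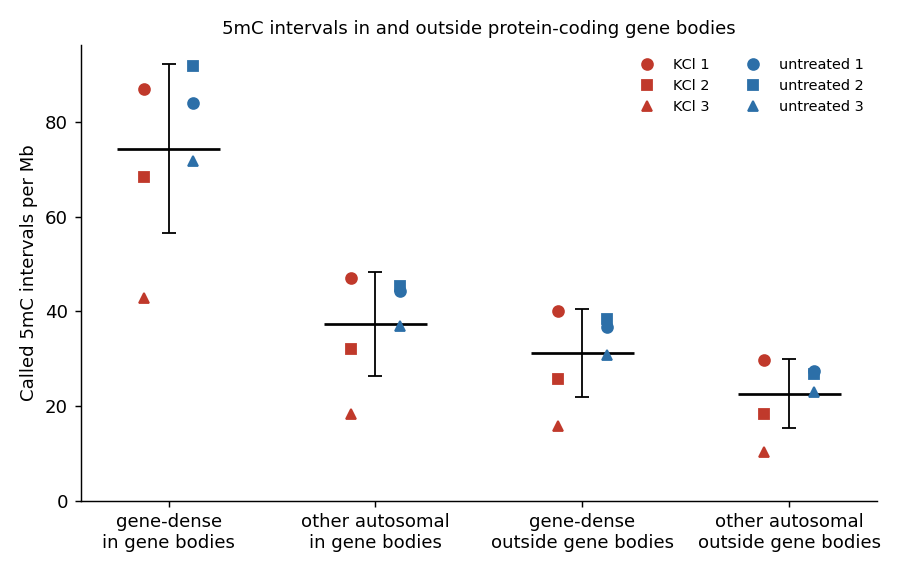
Called 5mC intervals per Mb (vertical axis) in and outside protein-coding gene bodies, for gene-dense and other autosomal windows; points are libraries (KCl left, untreated right), lines and bars are the mean and SD over 6 libraries. In each library, gene bodies of gene-dense windows had the highest value of the 4 classes.

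Counted by gene, gene-dense windows had a larger share of genes with a called region at an end and a smaller share with any called region. Within 1 kb of an end, 1121 of 3212 genes (34.9%) had a region in at least 1 library, against 26.1% of other autosomal protein-coding genes outside the receptor families. In the body, 62.8% had one against 70.0%, and at either place 66.6% against 72.0%. These shares pool the libraries and carry no test. Genes of gene-dense windows were shorter, with a median of 8587 bp against 23487 bp. By library, 22.0 ± 4.97% of genes in gene-dense windows had an interval at an end, against 15.3 ± 4.17% of other genes (difference 6.68 ± 0.92 percentage points, SD, n = 6; higher in 6 of 6; exact sign-flip permutation p = 0.031, two-sided).

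At 1 kb the difference was larger at 3′ ends than at 5′ ends. Among genes with a known strand, 15.8 ± 3.95% of those in gene-dense windows had an interval within 1 kb of the 3′ end, against 10.8 ± 3.07% of other genes (difference 4.96 ± 0.93 percentage points, SD, n = 6). At the 5′ end the values were 6.77 ± 1.84% and 5.84 ± 1.68%, a difference of 0.93 ± 0.19 percentage points. With zones of 2 kb the difference was 3.60 at 5′ ends and 8.06 at 3′ ends, and with equal numbers of intervals per library 0.603 and 3.29. Both 1 kb differences were positive in 6 of 6 libraries (exact sign-flip permutation p = 0.031, two-sided). Genes lie close together in gene-dense windows, so an interval near one gene's end can lie in the body of its neighbour.

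Promoter windows of 300 bases rarely overlapped a called region in either class. In gene-dense windows 82 of 2495 promoters (3.29%) overlapped a region, and in other windows 403 of 12702 (3.17%). Promoters were split by CpG content, with CpG-rich meaning an observed over expected CpG ratio of 0.6 or more and a GC content of 50% or more. In gene-dense windows 14 of 1235 CpG-rich promoters (1.13%) and 68 of 1260 CpG-poor promoters (5.40%) overlapped a region, and in other windows 90 of 6541 (1.38%) and 313 of 6161 (5.08%). By library, CpG-poor promoters of gene-dense windows were overlapped in 3.25%, against 2.79% elsewhere (higher in 6 of 6 libraries, exact sign-flip permutation p = 0.031). CpG-rich promoters went the other way, with 0.945% in gene-dense windows against 1.08% elsewhere (lower in 6 of 6 libraries, exact sign-flip permutation p = 0.031). Both differences are fractions of a percentage point. Over all promoters the difference was 0.206 percentage points, positive in 5 of 6 libraries (exact sign-flip permutation p = 0.0625, two-sided). Of the promoters printed above, Sec1 and Krt75 were CpG-poor, and Hormad1, Henmt1, Ap2s1 and Eef2 CpG-rich.

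Gene families within the windows differed in how often a region lay at a gene end; these are counts with no test, to be read against 34.9% over all genes of the windows. Keratins, the intermediate filament proteins of epithelia and hair, stood highest among families of 5 or more genes, with 37 of 53 (69.8%), and 23 of the 36 with a known strand had it at the 5′ end, where the share over all stranded genes was 12.3%. By library, an end interval was present at 28, 15 and 13 keratin genes in the KCl libraries and at 24, 26 and 20 in the untreated libraries. The groups overlapped, and KCl replicates 2 and 3, which had the fewest intervals in all, were lowest. The highest keratin regions lay at Krt78 (95, 78 and 49 in KCl, 80, 99 and 75 in untreated libraries), Krt75 and Krt4 (80, 54 and 27 in KCl, 69, 76 and 56 in untreated libraries).

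Keratin-associated proteins, which crosslink hair keratin and lie in tandem arrays, had an end region at 6 of 36 genes. Cornified envelope genes had none at 34, kallikreins (serine proteases) none at 10 and Hox genes (developmental transcription factors) none at 7. Defensins had one at 5 of 49 and genes of the MHC, which present antigens, at 5 of 32. Their low counts come with short genes, with a median length of 866 bp for keratin-associated proteins and 983 bp for defensins, and the part of length in them was not tested. Keratins, with a median of 7070 bp, were shorter than the 8587 bp of all genes of the windows.

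Potassium channel genes had an end region at 7 of 13, in each case at the 3′ end, and solute carriers at 21 of 70. Protocadherins, the clustered adhesion molecules that give neurons their surface identity, had a region at 55 of 57 genes and an end region at 26. Many of these genes overlap one another, so they share regions and are not separate observations. An end interval was present at 23, 22 and 19 protocadherin genes in the KCl libraries and at 20, 9 and 22 in the untreated libraries. Untreated replicate 2 was lower than the other 5 libraries. Zinc finger genes had an end region at 14 of 52, and genes with a symbol starting Rps or Rpl and a digit at 5 of 21. The latter were taken by symbol alone, so they are not all ribosomal protein genes (Rpl7l1 is among them). Among the remaining families, Cyp genes had one at 5 of 10, Ly6 genes at 3 of 6, Tmem genes at 18 of 57 and serpins at 2 of 2.

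**Figure D3:**
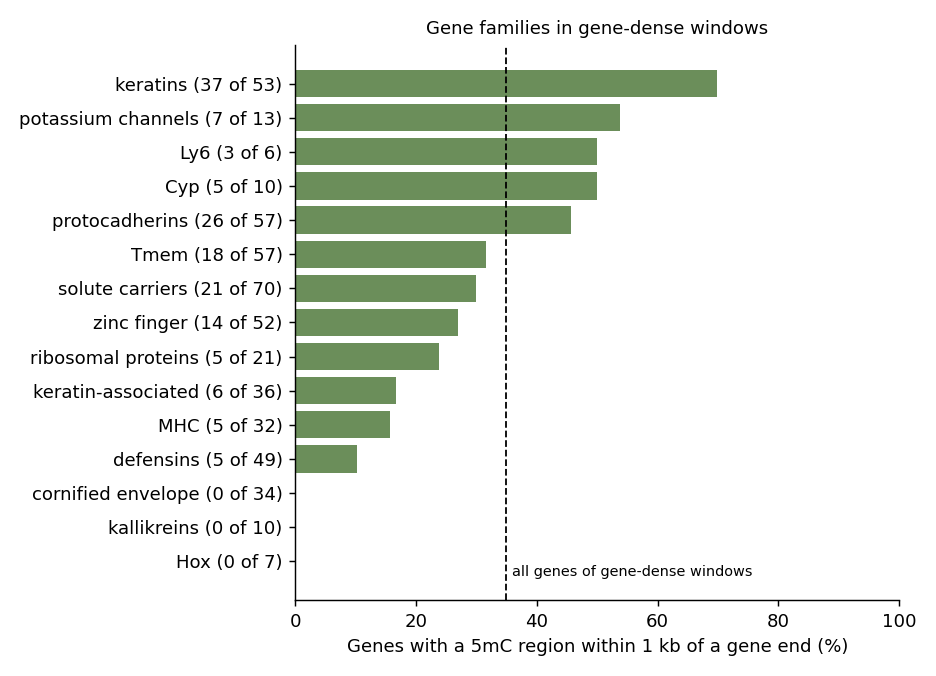
Share of genes with a 5mC region within 1 kb of a gene end (horizontal axis, percent), for families with 5 or more genes in gene-dense windows, with counts beside each name; the dashed line is the share over all genes of these windows (34.9%). Keratins reached 69.8%, while cornified envelope, kallikrein and Hox genes had none.

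Of the 29 genes of an activity-induced list, 9 lay in gene-dense windows, and 4 of them had a region. Npas4, an activity-induced transcription factor, had 2 regions in its body; the higher (chr19:4988079-4988688) had heights of 42, 26 and 14 in the KCl libraries and 30, 42 and 35 in the untreated libraries. Nr4a1, an immediate-early nuclear receptor, had 18, 23 and 16 in the KCl libraries and 23, 24 and 23 in the untreated libraries at its highest region (chr15:101270013-101271092). Both sets of values overlapped between groups. Fosb, an AP-1 transcription factor, was called in 5 libraries, with 18 and 13 in KCl replicates 1 and 2 and 27, 13 and 17 in the untreated libraries. Fosl1, another AP-1 factor, had 1 region. No region lay at Gadd45b, Ier2, Ier3, Junb or Jund, all short genes of this list.

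All 8 genes of a neuronal list in these windows had a region, against 66.6% over all genes of the windows, with a median gene length of 28172 bp. Grin1, the obligatory NMDA receptor subunit, had 3 regions, and its highest had 31, 31 and 28 in the KCl libraries and 27, 38 and 25 in the untreated libraries. The groups overlapped there. Counted by library, an end interval was present at 0, 1 and 0 of these 8 genes in the KCl libraries and at 2, 2 and 2 in the untreated libraries. The groups stood apart in that count, which rests on few genes and carries no test. Over all genes of the windows the groups overlapped. The share with an end interval was 26.0%, 20.4% and 13.0% in the KCl libraries and 24.4%, 26.4% and 21.9% in the untreated libraries.

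Of 8 housekeeping genes in the windows, 4 had a region and 1 had one at an end. Eef2 had 3 regions in its body, of which the highest had 77, 70 and 54 in the KCl libraries and 83, 73 and 52 in the untreated libraries, while its promoter, printed above, had none. The highest region of Ap2s1 had 27 and 15 in KCl replicates 1 and 2 and 18, 32 and 13 in the untreated libraries. Polr2a, the largest subunit of RNA polymerase II, had 24, 20 and 15 in the KCl libraries and 19, 23 and 24 in the untreated libraries at the highest of its 4 regions.

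The highest regions lay mostly inside genes. The highest of all was in Clasrp, which encodes an SR-type splicing protein (chr7:19586099-19587109), with heights of 227, 182 and 132 in the KCl libraries and 195, 230 and 159 in the untreated libraries. Safb2, a nuclear scaffold attachment factor, followed (chr17:56566063-56567117), with 188, 144 and 117 in the KCl libraries and 153, 183 and 123 in the untreated libraries. The third was the region at the Sec1 promoter, which also lies at the 3′ end of a neighbouring gene, Ntn5, of the netrin family. In all of these the groups overlapped.

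The other 7 of the 10 highest regions had mean heights between 113 and 124. They lay in Sbk1 (a kinase), the gamma protocadherin cluster, Proca1, Plec, Scaf1 (an SR-related protein) and Hdgfl2 (an HDGF-like chromatin protein), and 33193 bp from Col18a1 (collagen XVIII). Of the 10, only the one at Sec1 and Ntn5 lay within 1 kb of a gene end. KCl replicate 3 was the lowest library in all 10 regions.

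**Figure D4:**
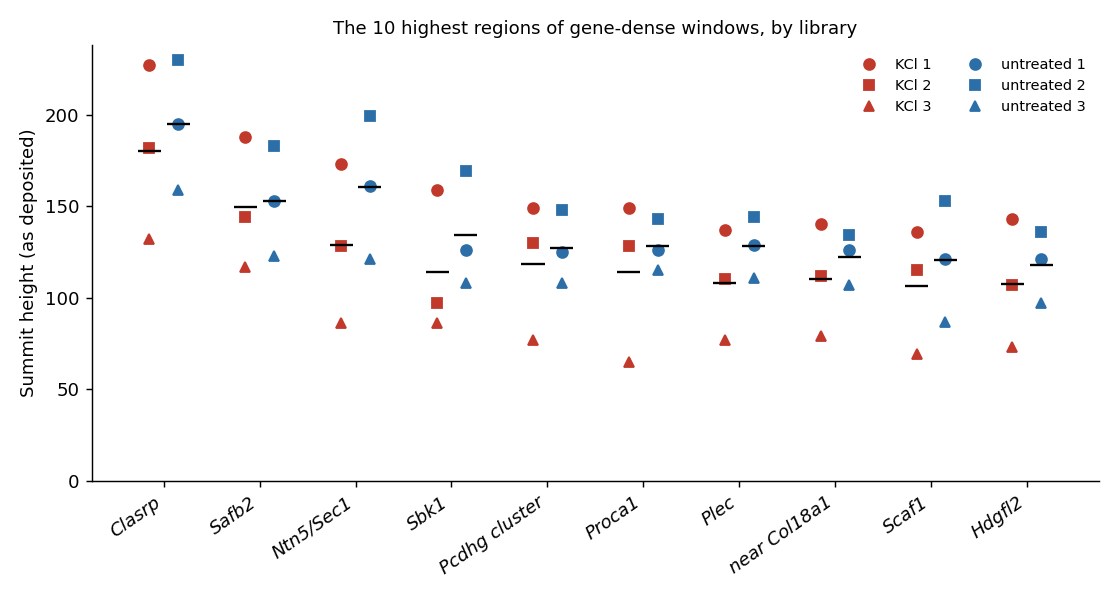
Deposited summit height (vertical axis) in each library for the 10 highest regions of gene-dense windows, named by the gene they overlap or lie nearest to; points are libraries (KCl left, untreated right) and short lines are group means over 3 libraries. The groups overlap in all 10 regions.

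Plec, which encodes the cytolinker plectin, held the longest region of these windows. It spans 5622 bp (chr15:76176370-76181991), ranks 2 by length among all 133337 active regions, and had heights of 137, 110 and 77 in the KCl libraries and 129, 144 and 111 in the untreated libraries. A neighbouring region of 2511 bp in the same gene had 99, 79 and 48 in the KCl libraries and 88, 99 and 77 in the untreated libraries. Other long regions, chosen after their values were seen, lay at Josd2 (2380 bp), Celsr2 (2316 bp), an atypical cadherin, and Lrp1 (2267 bp), an endocytic receptor. Counted over whole genes and 1 kb to either side, Tiam1 (a Rac activator spanning 358 kb, in part past the end of its window) had 75 regions. Gm37013, Gm38666 and Gm38667, which overlap one another and the gamma protocadherin cluster, had 72, 68 and 66. Dnah2 (an axonemal dynein) had 34, Lrp1 30, Nrg2 25 and Bsn (the presynaptic protein Bassoon) 23.

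The KCl comparison asked whether depolarisation changed 5mC enrichment at these regions. No region passed the test. Of the 7343, 1559 (21.2%) were tested, those called in all 6 libraries with a mean height of at least 18.7. The limma test of log2(height + 1) over all 20537 tested regions called 0 of the 1559 at an adjusted p of 0.05, and 0.0% of all tested regions. The lowest adjusted p in limma was 0.93. When p was not adjusted, 0 of these regions were higher at p under 0.05 and 17 were lower, where the share of all tested regions that were lower was 1.12%. The 17 depended on single libraries and on pairing, and so did the count over all tested regions. Without KCl replicate 1 there were 260 of 1598, against 4325 of 20796 over all. The smallest adjusted p in limma there was 0.18 in gene-dense windows and 0.084 over all tested regions. The count was 6 of 1652 without KCl replicate 2 (54 of 21891 over all) and 11 of 2217 without KCl replicate 3 (186 of 31004). It was 3 of 1586 without untreated replicate 1 (43 of 20895) and 0 of 1566 without untreated replicate 2 (40 of 20898). It was 16 of 1621 without untreated replicate 3 (140 of 21123) and 34 of 1559 with the replicate number as a block (509 of 20537). Heights as deposited were lower with KCl in 91.1% of the tested regions in gene-dense windows and in 90.6% of all tested regions. The median change over all tested regions was -0.25 (log2), but this rested on single libraries: it was -0.02 when KCl replicate 3 was left out and -0.46 when KCl replicate 1 was.

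Each region's change is for this reason given as a relative log2 change, the log2 change of KCl over untreated minus the median over all tested regions. In gene-dense windows 773 tested regions were higher and 786 lower, with a median of -0.0031 and quartiles of -0.12 and 0.11, against quartiles of -0.13 and 0.13 over all tested regions. After each library was centred on its median, 34 regions had an unadjusted limma p under 0.05 and were higher (2.18%; 2.1% over all tested regions) and 21 were lower (1.35%; 1.35% over all), and none passed adjustment. This balance moved with single libraries, here and over all tested regions. Without KCl replicate 3 it was 66 higher and 26 lower of 2217 (1020 and 355 of 31004 over all). It was 28 and 29 of 1598 without KCl replicate 1 (400 and 648 of 20796 over all). Without KCl replicate 2 it was 38 and 28 of 1652 (440 and 278 of 21891). It was 22 and 27 of 1586 without untreated replicate 1 (291 and 293 of 20895). Without untreated replicate 2 it was 33 and 15 of 1566 (433 and 391 of 20898). It was 13 and 44 of 1621 without untreated replicate 3 (294 and 417 of 21123). With the replicate block it was 42 and 33 of 1559 (620 and 437 of 20537). Centred heights of the groups did not overlap in 70 regions that were higher with KCl (4.49%; 4.86% over all) and in 70 that were lower (4.49%; 3.36% over all). Over the 70 gene-dense windows with at least 10 tested regions, the median relative change per window lay between -0.10 and 0.10, and was above 0 in 36.

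**Figure D5:**
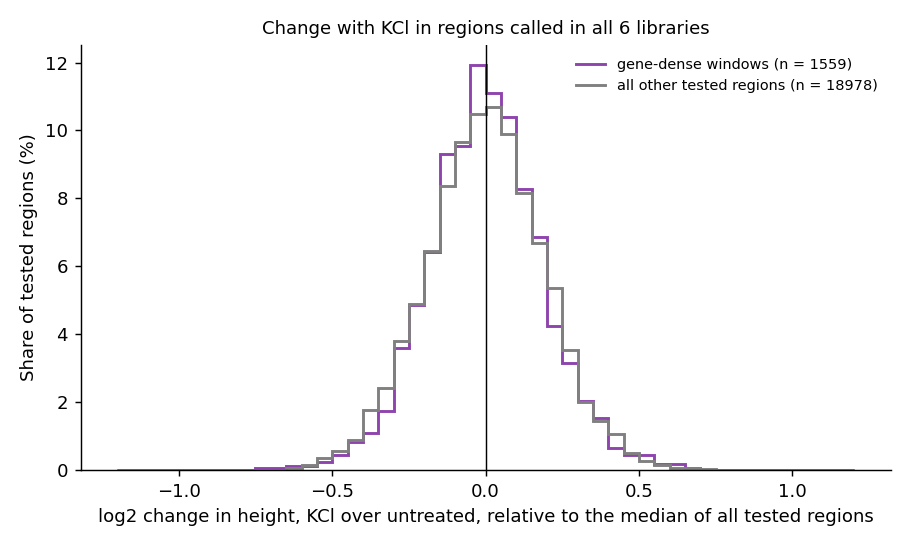
Share of tested regions (vertical axis, percent) by log2 change in height, KCl over untreated, relative to the median over all tested regions (horizontal axis), for gene-dense windows (n = 1559) and all other tested regions (n = 18978). Both distributions centre near 0 and no region of gene-dense windows moved by more than 0.74.

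Among regions higher relative to the median, the lowest p after centring was that of a region in Unc5a, a netrin receptor. It had heights of 34, 25 and 24 in the KCl libraries and 21, 27 and 14 in the untreated libraries, a relative log2 change of 0.68 ± 0.22 (SE; limma adjusted p = 1.00 after centring). Pgpep1, a peptidase that removes pyroglutamate, had 57, 37 and 28 in the KCl libraries and 33, 42 and 23 in the untreated libraries, a relative change of 0.54. The others were in R3hdm2 (0.64), in Abcc10, an ABC transporter (0.63), and 22783 bp from 2300002M23Rik (0.61). The region near 2300002M23Rik had 35, 24 and 24 in the KCl libraries and 20, 20 and 23 in the untreated libraries. The heights of the groups stood apart in that region and overlapped in the other 4.

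Among regions lower relative to the median, the lowest p belonged to a region 13451 bp from Tiam1. It had heights of 21, 19 and 13 in the KCl libraries and 31, 47 and 30 in the untreated libraries, a relative log2 change of -0.74 ± 0.21 (SE; limma adjusted p = 1.00 after centring). A region in Sptbn4, the spectrin of the axon initial segment, had 22, 18 and 11 in the KCl libraries and 36, 37 and 25 in the untreated libraries, a relative change of -0.69. The others lay in Amhr2, the receptor of anti-Müllerian hormone (-0.61), in Tnfaip1 (-0.56) and at the 3′ end of Fkbp10 or Nt5c3b (-0.48). As deposited, the heights of the groups stood apart in all of these regions, and none passed adjustment. Deposited heights were lower with KCl in 91.1% of tested regions of gene-dense windows, and how many regions stood apart as deposited was not counted.

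As a whole, heights in gene-dense windows did not separate the groups. Over the regions called in all 6 libraries, the mean height was 37.0, 29 and 20.6 in the KCl libraries and 33.0, 38.8 and 28.9 in the untreated libraries, a difference of -4.72 (exact permutation p = 0.5, two-sided, n = 3 each, smallest possible 0.1). Divided by each library's median height, it was 1.29 ± 0.022 in KCl libraries and 1.27 ± 0.067 in untreated libraries (SD, n = 3 each; exact permutation p = 0.7), so the sign turned. Gene-dense windows held 5.82%, 6.71% and 7.32% of autosomal intervals in the KCl libraries and 5.96%, 6.42% and 6.06% in the untreated libraries (difference 0.467 percentage points, exact permutation p = 0.4, n = 3 each). The share was highest in the KCl library with the fewest intervals. With the 34834 highest intervals of each library it was 7.18 ± 0.35% in KCl libraries and 7.25 ± 0.42% in untreated libraries (SD, n = 3 each; exact permutation p = 0.9), and the sign turned here too.

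Regions called in 1 group alone were few, and their number moved with the libraries and intervals used. Of the 7343 regions, 4 were called in all KCl libraries and no untreated one (0.0367% of all regions were), and 71 in all untreated libraries and no KCl one (1.01% of all regions). With an equal number of the highest intervals per library these counts were 11 and 20 of 3799 regions (0.290% and 0.526%), against 0.397% and 0.440% of all regions. Without KCl replicate 3 they were 62 and 80 (0.846% and 1.09%), against 0.830% and 1.13% of all regions. They lay between 8 and 18 and between 136 and 321 when any other library was left out. Without KCl replicate 1 they were 8 and 321 (0.117% and 4.68%), against 0.0749% and 5.74% of all regions. Without KCl replicate 2 they were 13 and 136 (0.180% and 1.88%), against 0.159% and 1.64%. Without untreated replicate 2 they were 18 and 144 (0.265% and 2.12%), against 0.160% and 2.40%. The 4 called with KCl alone lay in Nrxn2, a presynaptic adhesion molecule (15, 17 and 11), 7135 bp from Meioc, a meiotic regulator (13, 17 and 11), in Stk4, a Hippo pathway kinase (12, 11 and 13), and in Klhl26 (12, 12 and 10). Not being called in all 6 libraries, none of them could be tested, and none was higher than 17. The highest called in untreated libraries alone lay in Pwwp3a (18, 26 and 27), 24388 bp from Tns4, a tensin (20, 23 and 25), and 3109 bp from Dmkn (24, 17 and 17).

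In the unpaired tests, no difference between gene-dense and other windows separated the groups at p under 0.05, which 3 libraries against 3 cannot reach. The log2 ratio of interval density was 1.09 ± 0.18 in KCl libraries and 0.98 ± 0.06 in untreated libraries (SD, n = 3 each; exact permutation p = 0.4, smallest possible 0.1). Of the 1235 CpG-rich promoters of gene-dense windows, 0.837 ± 0.094% had an interval in KCl libraries and 1.05 ± 0.081% in untreated libraries. By library these were 0.891%, 0.891% and 0.729% in KCl and 1.05%, 1.13% and 0.972% in untreated libraries. They rest on few promoters, since only 14 of the 1235 overlapped a region of any library. The groups did not overlap (exact permutation p = 0.1, two-sided, n = 3 each, and 0.65 after adjustment over 13 tests). KCl libraries 2 and 3 also had the fewest intervals, and the part of that in the difference was not tested. For CpG-rich promoters of other windows the groups overlapped, with 1.19%, 1.04% and 0.810% in KCl and 1.18%, 1.18% and 1.05% in untreated libraries. Within replicate numbers the share in gene-dense windows was lower with KCl in 3 of 3 pairs, with a mean difference of -0.216 percentage points. So was the 3′-end difference between gene-dense and other windows, with a mean of -1.01 and a first pair of -0.029 (exact sign-flip permutation p = 0.25 for both, the smallest possible with 3 pairs). Both were picked for this. The paired differences in interval density, height, intervals and genes at gene ends, 5′ ends, CpG-poor promoters and all promoters were lower in 1 or 2 of 3 pairs. Of the regions of every gene list and family that were tested, 0 passed in limma. In the activity-induced list both tested regions were lower relative to the median (median -0.15), in the neuronal list 3 of 6 and in the keratins 9 of 18. Over all genes of the windows it was 667 of 1323. Of those 2 activity-induced regions, the one at Nr4a1 lay between -0.18 and 0.19 with 1 library left out, so its sign was not stable. At genes with a symbol starting Rps or Rpl, 3 of 3 tested regions were higher.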

How the data were processed

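MeDIP-seq libraries of KCl-treated (3) and untreated (3) cultures were compared; the pooled input was not used here. The submitters' processing notes name BWA, SICER and the build mm10, with no versions, and a company analysed the reads, per the labels' protocols. For caller settings and read filters, the sources used here give nothing. The deposited intervals were called per library and merged by the authors into active regions, per the file headers, and each deposited summit height is a whole-number score whose scaling is not stated. Because no read depth is given, no counting interval is given; this limits precision to the spread between libraries.

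Each active region took its highest summit per library. Genes came from the RefSeq table of GRCm38.p6 (on chromosomes, the same coordinates as mm10); strand came from RefSeq promoters. Coordinates are 1-based. Differences between window classes were tested by exact sign-flip permutation over 6 libraries, differences between groups by exact permutation, two-sided (scipy 1.17.1). Regions were tested with limma 3.58.1 (R 4.3.3) with a trend on log2(height + 1), which understates changes of low regions, over regions called in all 6 libraries at or above the 25th percentile of mean height, with Benjamini-Hochberg adjustment at 0.05; it was tested on simulated data. The edgeR test planned for read counts was not used, since the file holds none.

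Same-numbered libraries deviated together (correlations 0.11, 0.11 and 0.15, against -0.089 to -0.019 for different numbers), so by a limit of 0.1 the numbers pair the samples, although no label says what a number marks. A replicate block was run as an alternative.

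The members and gene lists were chosen with earlier results of these data known. Named regions are the 10 highest, the 5 with the lowest p after median centring in each direction, and those called in 1 group alone (all if 5 or fewer, else the 3 highest); named windows are the 5 with the most genes, the most regions and the fewest regions; lists give their 3 highest genes, of which a selection is printed, and some genes that the rule names are not reported here. The comparisons at 5′ and 3′ ends, in gene bodies and at promoters, and of regions called in 1 group alone, were added after the data were seen. The prefix Hist matched no gene of the table. Alternatives were other window cuts, a shift of windows, equal numbers of intervals, 2 kb ends, other filters and pseudocounts, and leaving out each library.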

Additional observations from a re-analysis of the deposited data

How the results depend on the processing

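The excess of gene-dense over other windows in interval density, in intervals and genes at gene ends, and at 5′ and 3′ ends kept its direction and passed the exact permutation test with equal numbers of intervals, a limit of 40 gene starts, windows shifted by 0.5 Mb and, for gene ends, 2 kb zones. For intervals at gene ends the choice of windows sets the direction, since end zones are 13.7% of gene-dense and 2.72% of other windows. Passing there adds no support. The height difference also kept its direction and passed in these settings, but against windows with 10 to 29 gene starts it was 0.667 and did not pass. With 1 library left out, 5 libraries allow no p below 0.0625, so no value can pass there; the ranges were 0.994 to 1.06 for the log2 density ratio, 1.0 to 1.2 for height, 10.9 to 11.1 percentage points for intervals at gene ends, 6.53 to 7.04 for genes with an end interval, 0.895 to 0.997 for 5′ ends and 4.77 to 5.32 for 3′ ends.

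For KCl against untreated, the difference in mean height was 0.0226 when scaled by the library median, the opposite sign of the deposited -4.72, and the share of intervals differed by -0.0706 percentage points with equal numbers, against 0.467. With 1 library left out these lay between -8.71 and -0.563 and between 0.116 and 0.862. The median relative change lay between -0.012 and 0.025, and limma called 0 regions in each case. The replicate block changed no call: with it limma called 0 regions, and the paired median relative change was -0.0031. No filter, another pseudocount and median centring gave 0 calls as well. Counts of regions called in 1 group alone moved by over 1.5 times with equal numbers and with most libraries left out. Depth is unknown, so the smallest change detectable at a region cannot be given.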
